A study of Mus musculus with 12 samples.

Results

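Cthrc1, Postn, Tgfbi, Tnc, Tnxb, Sparc, Sparcl1, Fn1, Fap and Ddah1 were followed in the left ventricle of the mouse after myocardial infarction (MI). These 10 genes form a fixed list matched on gene symbol, and all 10 were found among the 18050 genes of the expression table. They were picked with their read counts in these same MI and sham libraries in view, so their MI and sham values are given as a description, without p-values. The study sequenced polyadenylated RNA from left ventricles of wild type mice taken 7 days after surgery, in 6 MI libraries and 6 sham libraries. Replicates 1 and 2 of each group carry other processing notes than replicates 3 to 6, so values are given for these sets separately. Strain, sex and age are not given in the sources used here, nor how the infarct was made or whether each library is a separate animal. All libraries came from whole ventricle, where more cells of a type and more RNA per cell cannot be told apart.

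Matricellular proteins are secreted into the extracellular matrix, where they tune adhesion, growth factor signals and collagen assembly rather than bear load. Most are scarce in the resting adult heart and abundant in the healing infarct, where activated fibroblasts are a main source. Periostin (Postn), tenascin-C (Tnc), SPARC and its relative hevin (Sparcl1) are classical examples, and Cthrc1 is a secreted glycoprotein used as a mark of activated cardiac fibroblasts in mice. The name does not cover every gene here: fibronectin (Fn1) is a structural matrix glycoprotein, Fap is a protease anchored in the plasma membrane, and Ddah1 is a cytosolic enzyme.

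Levels are given as CPM, counts relative to the library total after TMM scaling. Of the 10 genes, 8 were higher in all 6 MI libraries than in any sham library, where 21.2% of the 13654 genes tested were. Tnxb was lower in all 6 MI libraries, as were 21.3% of genes, and Sparcl1 overlapped between the groups. Calls here mean an adjusted p under 0.05 in the same direction in 2 edgeR tests, over 12 libraries and with replicates 3 to 6 of each group summed into 1. By that rule 8 of the 10 were called higher and 1 lower, beside 28% and 29.7% of all genes, and nothing is read from those counts because the genes were chosen on this contrast. The log2 fold change of MI over sham had a median of 3.43 over the 10 genes and 0.01 over all genes tested. At least 8-fold higher were 6 of the 10, Cthrc1, Tnc, Fn1, Postn, Ddah1 and Sparc, beside 2.6% of all genes. Together the 10 genes took 2.42% to 2.67% of all counts in MI replicates 1 and 2 and 1.67% to 1.70% in MI replicates 3 to 6. They took 0.2115% to 0.2406% in sham replicates 1 and 2 and 0.153% to 0.1552% in sham replicates 3 to 6.

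**Figure D1:**
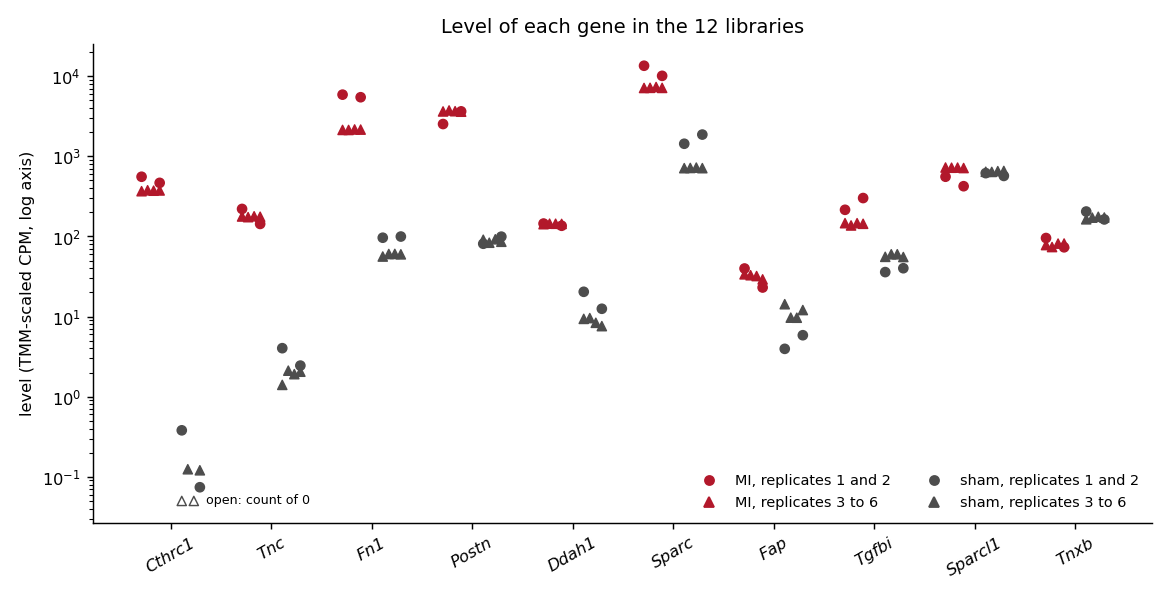
Level of each gene in each of the 12 libraries, in TMM-scaled CPM (log axis), with MI left of sham, circles for replicates 1 and 2 and triangles for replicates 3 to 6. Open triangles mark a count of 0, drawn at the foot of the axis. In 8 genes every MI point lies above every sham point, Tnxb shows the opposite order, and the Sparcl1 points overlap.

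Expected counts per library came to 18546662 to 18602226 in MI replicates 1 and 2 and 14168412 to 14410783 in MI replicates 3 to 6. In sham they came to 15541334 to 16066681 in replicates 1 and 2 and 9140353 to 9750764 in replicates 3 to 6. Libraries 3 to 6 lay far closer to each other than libraries 1 and 2: the biological coefficient of variation, the relative spread beyond counting error, was 0.0207 in MI and 0.0293 in sham replicates 3 to 6, against 0.192 in MI and 0.112 in sham replicates 1 and 2. The MI and sham libraries of replicates 3 to 6 differ in content too. Lung epithelial transcripts such as Sftpc summed to 164 to 168 CPM in MI replicates 3 to 6 and to at most 0.362 CPM in every other library. The beta-globin genes Hbb-bs and Hbb-bt held 0.0596% to 0.194% of beta-globin counts in MI replicates 3 to 6 and 99.88% to 99.99% in sham replicates 3 to 6, the rest falling to Hbb-b1 and Hbb-b2, so the beta-globin genes that held the counts were not the same in those groups. Both differences fall between MI and sham in replicates 3 to 6, so they cannot be told apart from the contrast there. Their part in the results was not tested.

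Promoter sequence was at hand for 6 of the 10 genes, in 8 windows reaching from 250 bases before to 50 bases after a RefSeq start on GRCm38.p6. Shown here are 3 that differ in their elements, from a gene that was among the highest in MI (Postn), from the tenascin that was higher in MI (Tnc) and from the tenascin that was lower (Tnxb). Each run is the 250 bases upstream of the start on the gene's own strand, and capitals mark matches to the motifs searched.
Postn, chr3:54360857-54361106, plus strand: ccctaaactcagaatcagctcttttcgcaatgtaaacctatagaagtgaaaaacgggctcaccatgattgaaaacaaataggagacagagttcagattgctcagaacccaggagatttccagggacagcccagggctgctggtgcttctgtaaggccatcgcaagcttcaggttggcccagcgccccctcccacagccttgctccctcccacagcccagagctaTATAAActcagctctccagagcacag
Tnc, chr4:64046937-64047186, minus strand: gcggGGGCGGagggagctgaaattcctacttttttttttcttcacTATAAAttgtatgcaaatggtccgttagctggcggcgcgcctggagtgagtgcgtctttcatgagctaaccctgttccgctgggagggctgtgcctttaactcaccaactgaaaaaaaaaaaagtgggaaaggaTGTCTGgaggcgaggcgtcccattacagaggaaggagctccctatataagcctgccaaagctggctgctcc
Tnxb, chr17:34670285-34670534, plus strand: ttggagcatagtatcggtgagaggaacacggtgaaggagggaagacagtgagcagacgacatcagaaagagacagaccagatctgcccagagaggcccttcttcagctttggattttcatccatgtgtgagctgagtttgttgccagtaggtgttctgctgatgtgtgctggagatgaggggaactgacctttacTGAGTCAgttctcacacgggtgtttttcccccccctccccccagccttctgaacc

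In the Postn run the TATA box letters TATAAA begin at position -26 from the start. In the Tnc run the GC box letters GGGCGG begin at -246, TATAAA at -205 and TGTCTG, the reverse complement of the SMAD element CAGACA, at -71. Tnxb has TGAGTCA, an instance of the AP-1 motif TGANTCA, at -55. These and the TEAD motif GGAATG were searched on both strands, and no matches in these runs overlapped each other. Over 32851 mouse promoter windows of the same length, 7.81% held the AP-1 motif, 14.7% the TEAD motif, 21.04% the SMAD element, 13.6% TATAAA and 35.7% GGGCGG. Among the 8 windows of these genes, 1 held the AP-1 motif (Tnxb), 3 the SMAD element (Tnc and Sparc), 3 TATAAA (Postn and Tnc) and 3 GGGCGG (Tnc and Tgfbi), and the TEAD letters were in none of these windows. The 2 Tnc windows overlap, so their matches are partly shared. A match in letters is a description of the sequence and does not show that a factor binds there.

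Cthrc1 (GRCm38 chromosome 15, 39076932 to 39087121, plus strand) encodes collagen triple helix repeat containing protein, a secreted glycoprotein that limits collagen deposition and acts in planar Wnt signalling. It stood at 557 and 467 CPM in MI replicates 1 and 2 and at 367, 377, 373 and 375 CPM in MI replicates 3 to 6. In sham replicates 1 and 2 it stood at 0.381 and 0.0741 CPM, and in sham replicates 3 to 6 at 0, 0.124, 0 and 0.121 CPM. The gene was close to undetected in every sham library and abundant in every MI library. The sham values rest on 5 and 1 reads in replicates 1 and 2 and on 0, 1, 0 and 1 reads in replicates 3 to 6. Relative to library size, summed reads were 2268 times as many in MI as in sham in replicates 1 and 2 (exact 95% counting interval 1042 to 6181). In replicates 3 to 6 the ratio was 6203, with an interval of 1717 to 51230. The intervals overlap and cover counting error only, so the size of the fold rests on how few reads sham has, and no difference in fold between the sets is read from it. Its log2 fold change of 11.60 over 12 libraries had rank 1 among all genes tested. Without sham replicate 1, which holds 5 of the 8 sham reads, the fitted value was 12.46.

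Postn (chromosome 3, 54361109 to 54391037, plus strand) encodes periostin, a protein of FAS1 domains that binds collagen and promotes its crosslinking. It reached 2533 and 3645 CPM in MI replicates 1 and 2 and 3637, 3743, 3663 and 3611 CPM in MI replicates 3 to 6. Sham libraries held 81.1 and 99.5 CPM in replicates 1 and 2 and 91.1, 83.6, 92.3 and 85.9 CPM in replicates 3 to 6. MI replicate 1 was the lowest MI library, and the other 5 lay within a narrow range. The fitted fold of MI over sham was 34.2 in replicates 1 and 2 and 42.9 in replicates 3 to 6. Over 12 libraries the log2 fold change was 5.28 (SE 0.14). Periostin transcripts stood at nearly the same sham level in both sets, with a ratio of replicates 1 and 2 to replicates 3 to 6 of 1.02.

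Tgfbi (chromosome 13, 56609523 to 56639562, plus strand) encodes the closest relative of periostin, a FAS1 protein first found as induced by TGF-beta. It stood at 215 and 302 CPM in MI replicates 1 and 2 and at 147, 137, 146 and 144 CPM in MI replicates 3 to 6. In sham it stood at 35.9 and 40.2 CPM in replicates 1 and 2 and at 55.7, 59.9, 60.0 and 55.4 CPM in replicates 3 to 6. MI and sham did not overlap, but the sets stood in opposite order in the groups. In MI, replicates 1 and 2 were 1.80 times as high as replicates 3 to 6, and in sham 0.659 times as high. The fitted fold of MI over sham was 6.79 in replicates 1 and 2 and 2.57 in replicates 3 to 6. The difference between their log2 fold changes was 1.45, the largest in size among the 10 genes. Its SE of 0.15 comes from 1 fit over both sets and is too small, below the SE of 0.20 in replicates 1 and 2 alone.

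Tnc (chromosome 4, 63959785 to 64047015, minus strand) encodes tenascin-C, a large glycoprotein that loosens cell adhesion and is laid down at the border of a healing infarct. MI replicates 1 and 2 held 221 and 143 CPM and MI replicates 3 to 6 held 178, 174, 179 and 176 CPM. Sham replicates 1 and 2 held 4.03 and 2.45 CPM and sham replicates 3 to 6 held 1.40, 2.11, 1.91 and 2.05 CPM. All MI libraries were far above all sham libraries. The MI means, 182 ± 54.7 CPM in replicates 1 and 2 (SD, n = 2) and 176.7 ± 1.87 CPM in replicates 3 to 6 (SD, n = 4), differed by less than the spread within replicates 1 and 2. Summed reads relative to library size were 56.1 times as many in MI as in sham in replicates 1 and 2 (exact 95% counting interval 45.4 to 70.3) and 94.8 times in replicates 3 to 6 (73.9 to 124).

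Tnxb (chromosome 17, 34670535 to 34719815, plus strand) encodes tenascin-X, which organises collagen fibrils in connective tissue and whose loss causes a form of Ehlers-Danlos syndrome in humans. It stood at 95.7 and 73.3 CPM in MI replicates 1 and 2 and at 78.1, 73.8, 81.5 and 81.7 CPM in MI replicates 3 to 6. Sham held 205 and 163 CPM in replicates 1 and 2 and 164, 172, 176 and 172 CPM in replicates 3 to 6. Tenascin-X transcripts were thus lower in every MI library, the reverse of tenascin-C. The log2 fold change was -1.12 (SE 0.08) over 12 libraries, -1.12 (SE 0.19) in replicates 1 and 2 and -1.07 (SE 0.04) in replicates 3 to 6. It was -0.71 when libraries were scaled by their totals alone, a scaling that moved the median log2 fold change of all genes to 0.42.

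Sparc (chromosome 11, 55394500 to 55423183, minus strand) encodes SPARC, also called osteonectin, a collagen-binding protein that aids the processing and deposition of fibrillar collagen. It was the most abundant of the 10 genes, with 13530 and 10121 CPM in MI replicates 1 and 2 and 7139, 7171, 7338 and 7155 CPM in MI replicates 3 to 6. Sham libraries held 1437 and 1871 CPM in replicates 1 and 2 and 713, 717, 724 and 713 CPM in replicates 3 to 6. MI and sham stood well apart, and in both groups replicates 1 and 2 lay above replicates 3 to 6. The fitted fold of MI over sham was 7.15 in replicates 1 and 2 and 10.4 in replicates 3 to 6. Over 12 libraries the log2 fold change was 3.17 (SE 0.15).

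Sparcl1 (chromosome 5, 104079111 to 104113733, minus strand) encodes hevin, a relative of SPARC that is abundant in blood vessels and in resting stroma. It stood at 557 and 424 CPM in MI replicates 1 and 2 and at 725, 721, 724 and 715 CPM in MI replicates 3 to 6. Sham held 618 and 570.0 CPM in replicates 1 and 2 and 642, 639.6, 653 and 658 CPM in replicates 3 to 6. Both MI values lay below both sham values in replicates 1 and 2, and all 4 MI values lay above all 4 sham values in replicates 3 to 6. The log2 fold change was -0.27 (SE 0.17) in replicates 1 and 2 and 0.20 (SE 0.02) in replicates 3 to 6, which gave 0.01 (SE 0.10) over 12 libraries. This opposite direction was lost when libraries were scaled by their totals alone, where it was 0.16 in replicates 1 and 2 and 0.55 in replicates 3 to 6.

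Fn1 (chromosome 1, 71585520 to 71653200, minus strand) encodes fibronectin, the glycoprotein on which cells build a provisional matrix after injury. MI replicates 1 and 2 held 5895 and 5473 CPM and MI replicates 3 to 6 held 2138, 2136, 2168 and 2159 CPM. Sham held 96.5 and 99.8 CPM in replicates 1 and 2 and 56.2, 60.4, 60.6 and 59.9 CPM in replicates 3 to 6. Fibronectin transcripts separated MI from sham and also separated the sets: replicates 1 and 2 were 2.64 times as high as replicates 3 to 6 in MI and 1.66 times as high in sham. The fitted fold of MI over sham was 57.9 in replicates 1 and 2 and 37.5 in replicates 3 to 6. Over 12 libraries the log2 fold change was 5.41 (SE 0.15). An antisense gene, Apol7d, overlaps 2.68% of its exon bases, and the counting is not stated to use strand.

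Fap (chromosome 2, 62500943 to 62574075, minus strand) encodes fibroblast activation protein, a serine protease of the cell surface related to the dipeptidyl peptidases. It was scarce, with 39.8 and 23.1 CPM in MI replicates 1 and 2 and 33.7, 32.8, 32.1 and 29.1 CPM in MI replicates 3 to 6. In sham it stood at 3.96 and 5.86 CPM in replicates 1 and 2 and at 14.3, 9.70, 9.68 and 12.1 CPM in replicates 3 to 6. MI and sham did not overlap, and the MI means of the sets were alike while the sham means were not. The ratio of replicates 1 and 2 to replicates 3 to 6 was 0.985 in MI and 0.429 in sham. The fitted fold of MI over sham was 6.40 in replicates 1 and 2 and 2.88 in replicates 3 to 6.

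Ddah1 (chromosome 3, 145758675 to 145894277, plus strand) encodes dimethylarginine dimethylaminohydrolase, which breaks down asymmetric dimethylarginine, an inhibitor of nitric oxide synthase. Its MI values were among the steadiest of the 10 genes, 145 and 136 CPM in replicates 1 and 2 and 142, 144, 144 and 143 CPM in replicates 3 to 6. Sham values were 20.4 and 12.5 CPM in replicates 1 and 2 and 9.36, 9.57, 8.37 and 7.60 CPM in replicates 3 to 6. No MI value overlapped a sham value. The fitted fold of MI over sham was 8.54 in replicates 1 and 2 and 17.0 in replicates 3 to 6. Over 12 libraries the log2 fold change was 3.69 (SE 0.18).

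**Figure D2:**
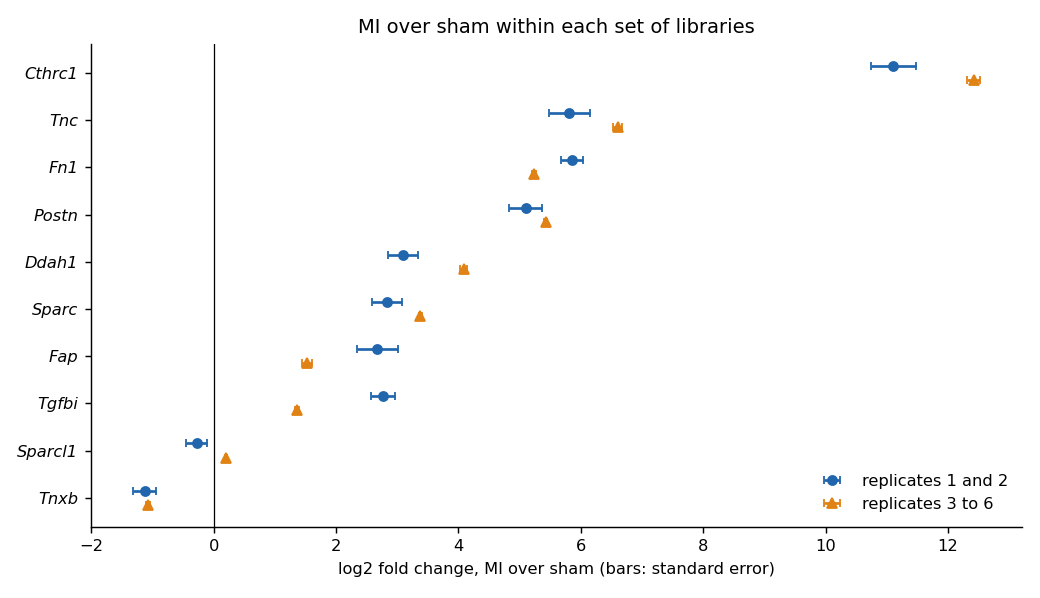
Log2 fold change of MI over sham for each gene, fitted in replicates 1 and 2 (circles) and in replicates 3 to 6 (triangles), with bars for the standard error. Tgfbi, Fap and Fn1 have the larger value in replicates 1 and 2, while Sparcl1 lies on either side of 0 and Tnxb below 0 in both sets.

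The direction was the same in both sets for 9 of the 10 genes. It was above 0 in both for 8 and below 0 in both for 1, as were 43.1% and 38.9% of all genes tested. The fold change was larger in replicates 1 and 2 for 3 genes, Tgfbi, Fn1 and Fap, and the other 7 had the higher value in replicates 3 to 6. A difference between the log2 fold changes of at least 1 in size was found for 3 genes, Tgfbi (1.45, SE 0.15), Cthrc1 (-1.31, SE 0.92) and Fap (1.20, SE 0.32), and for 24.7% of all genes. For Cthrc1 it was less than 2 of its standard errors. Fn1 (0.67, SE 0.08), Sparc (-0.49, SE 0.15), Ddah1 (-0.94, SE 0.19) and Sparcl1 (-0.43, SE 0.11) showed smaller differences. Tnxb (0.00 in size, SE 0.14) showed none that could be measured, and for Postn (-0.28, SE 0.16) and Tnc (-0.75, SE 0.37) the difference was about 2 standard errors in size. These standard errors come from 1 fit over both sets, which differ in spread. For all but Cthrc1 and Tnc they lie below the SE of the fold in replicates 1 and 2 alone, which was 0.18 for Fn1 and 0.24 for Sparc. Those are too small, so the number of standard errors does not rank the genes.

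The level in MI alone was close between the sets for 4 genes, Ddah1, Fap, Tnc and Tnxb, whose ratio of replicates 1 and 2 to replicates 3 to 6 lay between 0.979 and 1.07. In sham the ratio of these genes was 1.89 for Ddah1, 0.429 for Fap, 1.73 for Tnc and 1.08 for Tnxb. Their differences in fold between the sets, where present, thus came with different sham levels. Fn1 differed most in MI, with a ratio of 2.64, followed by Tgfbi at 1.80 and Sparc at 1.64. Within MI replicates 3 to 6, the coefficient of variation of a gene's CPM was at most 6.19%.

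**Figure D3:**
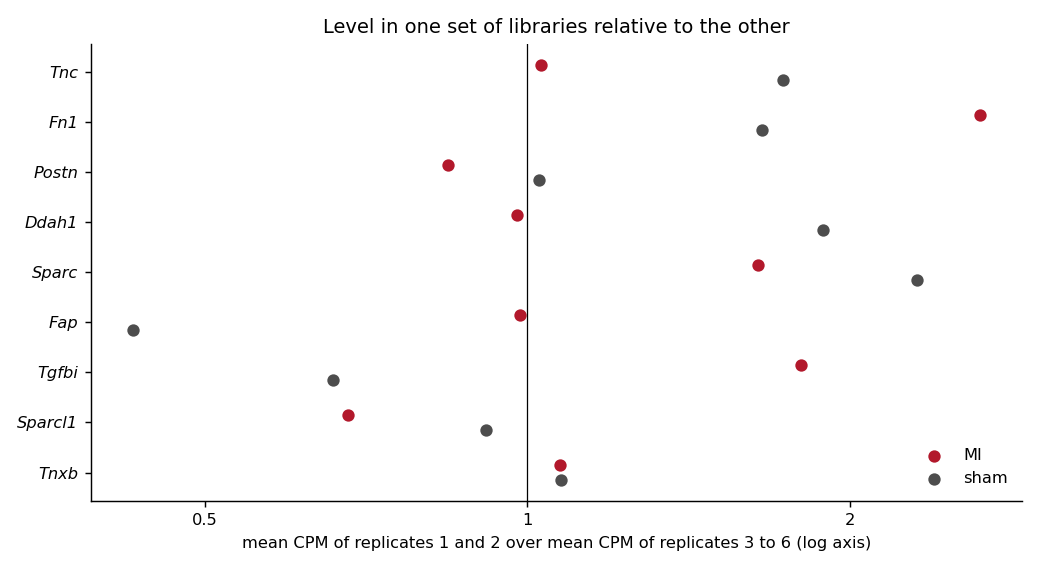
Mean CPM of replicates 1 and 2 over mean CPM of replicates 3 to 6 (log axis), within MI (red) and within sham (grey), for 9 genes. Cthrc1 is left out because its sham values rest on few reads. Ddah1, Fap, Tnc and Tnxb lie near 1 in MI, Fn1 lies farthest from 1 in MI, and Fap lies farthest below 1 in sham.

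Levels between genes were compared per length, in FPKM, the fragments of a gene relative to its length and to the library total. In MI, Sparc averaged 4415 ± 707 FPKM, Postn 1258 ± 179, Fn1 479 ± 258, Cthrc1 440 ± 66.8 and Sparcl1 240 ± 46.8 FPKM (SD, n = 6). Tgfbi followed at 77.8 ± 28.2 FPKM, then Ddah1 at 48.9 ± 1.13, Tnc at 34.4 ± 4.29, Fap at 14.9 ± 2.57 and Tnxb at 8.43 ± 0.83 FPKM (SD, n = 6). Sparc was number 4 of 17625 genes by mean level in MI and Postn number 47. Only Fn1 and Cthrc1 among neighbours in that order overlapped: Fn1 was above Cthrc1 in replicates 1 and 2 and below it in replicates 3 to 6.

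In sham the order was Sparc at 380 ± 126 FPKM, Sparcl1 at 177 ± 11.8, Postn at 24.6 ± 1.74, Tgfbi at 16.6 ± 3.70 and Tnxb at 13.4 ± 1.19 FPKM (SD, n = 6). Below them stood Fn1 at 7.89 ± 1.97 FPKM, Fap at 3.38 ± 1.60, Ddah1 at 2.82 ± 1.04, Tnc at 0.323 ± 0.109 and Cthrc1 at 0.112 ± 0.133 FPKM (SD, n = 6). Tgfbi and Tnxb, Fap and Ddah1, and Tnc and Cthrc1 overlapped as neighbours. Cthrc1, lowest of the 10 in sham at number 14183 of 17625 genes, was at number 203 in MI, and Tnxb was the lowest of the 10 in MI. FPKM is relative to the library total without TMM scaling, and on log2(FPKM + 0.1) the median change of all genes tested was 0.40. On that scale Sparcl1 averaged more in MI than in sham. Its libraries overlapped, at 160.84 to 270.6 FPKM in MI and 157.0 to 187.17 FPKM in sham. In TMM-scaled CPM its mean was 645 in MI and 630 in sham.

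Within pairs of related genes the balance in FPKM differed between MI and sham. Tnc was 3.95 to 4.38 times as high as Tnxb in MI replicates 1 and 2 and 3.88 to 4.22 times in MI replicates 3 to 6. In sham it was 0.0297 to 0.0386 times as high in replicates 1 and 2 and 0.0163 to 0.0222 times in replicates 3 to 6. Tenascin-C was thus the more abundant tenascin in every MI library and tenascin-X in every sham library. Sparc was 28.0 to 28.4 times as high as Sparcl1 in MI replicates 1 and 2 and 14.8 to 15.3 times in MI replicates 3 to 6, against 2.75 to 3.83 times in sham replicates 1 and 2 and 1.61 to 1.67 times in sham replicates 3 to 6. Postn was 9.94 to 10.2 times as high as Tgfbi in MI replicates 1 and 2 and a median of 21.2 times (at most 23.1) in MI replicates 3 to 6, against 1.94 to 2.12 times in sham replicates 1 and 2 and 1.19 to 1.40 times in sham replicates 3 to 6. A ratio within a library does not depend on how libraries are scaled to each other, and it shows unequal change of the pair, not which of them changed. The ratio of Fn1 to Postn was not parted in the same way, at 0.599 to 0.927 in MI and 0.397 to 0.471 in sham replicates 1 and 2, and at 0.228 to 0.239 in MI and 0.245 to 0.288 in sham replicates 3 to 6.

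**Figure D4:**
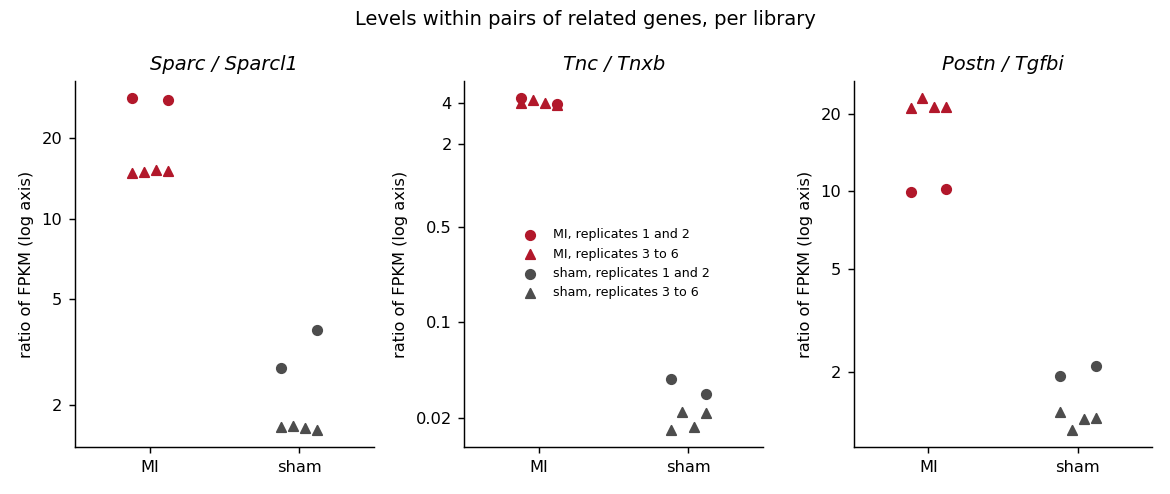
Ratio of FPKM within each library for Sparc over Sparcl1, Tnc over Tnxb and Postn over Tgfbi (log axes), with MI left of sham, circles for replicates 1 and 2 and triangles for replicates 3 to 6. Each ratio is higher in all 6 MI libraries, and the ratio of Tnc to Tnxb lies near 4 in both MI sets.

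The genes whose profile lay nearest to each of the 10 were found by the root mean square difference of log2 CPM over the 12 libraries, each profile centred on its own mean. A prior count of 0.5 entered these logs, so distances of genes with few reads in a group, Cthrc1 among them, depend on it. Nearest to Cthrc1 were Col11a1 (1.49), Arg1 (1.71) and C1qtnf3 (1.86), at distances above those found for the other 9 genes. Postn lay nearest to Ptn (0.308), Ecrg4 (0.324) and Adam12 (0.388), and Tnc to Ecrg4 (0.445), Ccn4 (0.560) and Matn3 (0.585). Fn1 had Pdgfrl (0.293), Car12 (0.295) and Adam12 (0.377), although the fitted log2 fold changes of Car12, 8.78 in replicates 1 and 2 and 7.04 in replicates 3 to 6, exceeded those of Fn1, 5.86 and 5.23. Ddah1 had Cilp (0.1999), Adamts12 (0.296) and Fbn1 (0.339). Sparc had Ncam1 (0.227), Enpp1 (0.228) and Shisa4 (0.241), and Fap had Nucb2 (0.267), Ifi204 (0.270) and Itga4 (0.273). Tgfbi lay near Npc2 (0.107), Tmem106a (0.108) and Plxdc2 (0.136), Tnxb near Rarb (0.104), Tmtc1 (0.108) and Ubxn6 (0.108), and Sparcl1 near Czib (0.0750), Utrn (0.0765) and Ccdc25 (0.0922). The profiles of Tgfbi, Tnxb and Sparcl1 were common ones, with 76, 301 and 944 genes within 0.25 of them, while Postn, Tnc, Fn1, Fap and Cthrc1 had none within that distance. Among the 10 genes themselves, Sparc and Ddah1 lay closest (0.461), followed by Tgfbi and Fap (0.489) and Tnxb and Sparcl1 (0.613). All these profiles share the same 12 libraries and the same difference between MI and sham.

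Other genes of the same families and pathways, 51 of them tested in 8 lists, were set beside the 10, with 27 called higher in MI and 6 called lower, where the shares of all genes were 28% and 29.7%. Counts near those shares, such as 2 of 6, say nothing particular about a list. The lists were chosen with earlier results of these data known. Counts above the shares, and p-values of genes in the lists, are therefore a description and not a test. The count of lower calls fell to 2 without MI replicate 1 or MI replicate 2 and to 3 without sham replicate 1 or sham replicate 2. The CCN family, matricellular proteins that bind integrins, had 5 of 6 called higher, with a median log2 fold change of 2.85 beside 0.01 for all genes. Ccn2, connective tissue growth factor, had a log2 fold change of 3.51 (SE 0.08; edgeR adjusted p = 1.97e-11 over 12 libraries and 0.000696 with replicates 3 to 6 summed). Ccn5 (4.81, SE 0.42) and Ccn1 (2.18, SE 0.14) rose too, and Ccn6 fell (-1.30, SE 0.26). Of 9 other secreted proteins of the matrix, all 9 were called higher, with a median of 2.69. They included Bgn, the proteoglycan biglycan (2.95, SE 0.15), Mfap4, a microfibril protein (4.87, SE 0.21), and Ogn, osteoglycin (0.91, SE 0.13).

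Among relatives of the tenascins and of SPARC, 2 of 6 were called higher and 1 lower, near the shares of all genes, with a median of 0.27. Fstl1, a secreted SPARC relative, rose by a log2 fold change of 3.64 (SE 0.10) and the tenascin Tnn by 6.31 (SE 0.28), Spock2 fell (-1.50, SE 0.19), and Smoc2 was not called at -0.18 (SE 0.06). Of the other FAS1 proteins, Stab1 (0.34, SE 0.15) and Stab2 are receptors of vessel and macrophage surfaces, and neither was called (median 0.57). Receptors and assembly partners of fibronectin and the tenascins had 8 of 11 called higher, 1 lower and a median of 0.78. Among them the integrin subunits Itgb1 (0.78, SE 0.09), Itgb5 (1.89, SE 0.08) and Itga5 (1.29, SE 0.10) rose. Tns1, which links integrins to actin, fell (-1.02, SE 0.13), a call lost without MI replicate 1 or MI replicate 2, and the transglutaminase Tgm2 was not called at -0.04 (SE 0.08).

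For Fap, 5 other dipeptidyl peptidases and relatives gave 1 higher call, 1 lower call and a median of -0.25: Dpp7 rose (1.75, SE 0.31), Dpp9 fell (-0.42, SE 0.08), and Dpp8 was not called at -0.25 (SE 0.06). For Ddah1, 6 other genes of methylarginine handling gave 2 lower calls and a median of 0.01. The arginine methyltransferases Prmt1 (-0.44, SE 0.12) and Carm1 (-0.32, SE 0.09) fell, and Ddah2, the other hydrolase, was not called at 0.45 (SE 0.09). For Cthrc1, 6 partners in planar Wnt signalling gave 2 higher calls and a median of 0.40, with Ror2 (1.86, SE 0.19) and Vangl2 (1.21, SE 0.14) higher and the receptor Ryk not called at 0.28 (SE 0.11). The lower calls of Dpp9, Prmt1 and Carm1 were each lost without MI replicate 1, MI replicate 2, sham replicate 1 or sham replicate 2. These small changes depend on scaling. When libraries were scaled by their totals alone, the dipeptidyl peptidase list had 1 higher and 0 lower calls, methylarginine handling 2 higher and 0 lower, planar Wnt partners 5 higher and 0 lower, tenascin and SPARC relatives 3 higher and 0 lower, and the FAS1 relatives 1 higher. Over all genes that scaling called 6264 higher and 2477 lower, against 3823 higher and 4055 lower with TMM. Without sham replicate 1 the count of genes called higher was 2241, and without sham replicate 2 it was 2459.

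**Figure D5:**
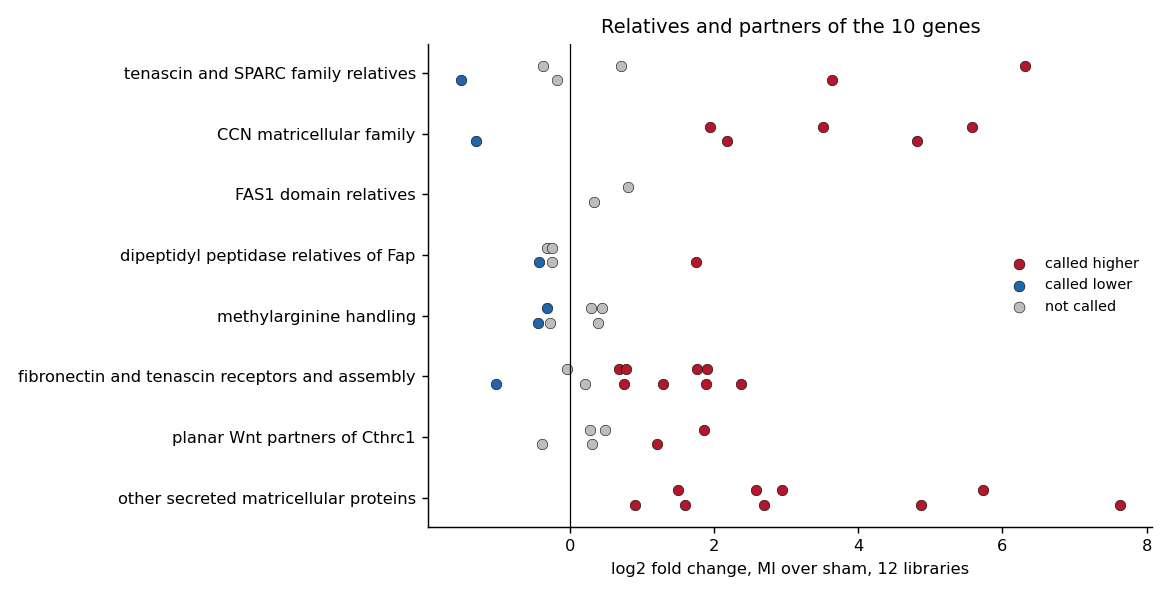
Log2 fold change of MI over sham for every tested gene of the 8 lists of related genes, in red where called higher, blue where called lower and grey where not called. The CCN family and the other secreted proteins have medians of 2.85 and 2.69, while the relatives of Fap and of Ddah1 lie within 0.5 of 0 except Dpp7 at 1.75.

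Markers of the cell types that the ventricle or its dissection can hold moved between the groups as well. Their lists too were chosen with earlier results of these data known. The fibroblast list had 6 of 7 called higher, led by Col1a1 (5.37, SE 0.16) and Col1a2 (4.76, SE 0.14), and summed to 36663 to 49109 CPM in MI and 2305 to 2553 CPM in sham replicates 1 and 2. In replicates 3 to 6 it summed to 14053 to 14158 CPM in MI and 2985 to 3132 CPM in sham. These MI sums are mostly collagen: in MI replicates 1 and 2 Col1a1 averaged 23797 CPM and Col1a2 15702 CPM. The other fibroblast markers had log2 fold changes from 0.47, not called, to 1.92. Genes of the matrifibrocyte, the fibroblast state of a mature scar, had 4 of 4 called higher, including Comp (5.06, SE 0.48) and Cilp (3.45, SE 0.15). Contractile myofibroblast genes had 3 of 4 called higher, with Tagln at 2.54 (SE 0.16) and Acta2, not called, at 1.25 (SE 0.21). The macrophage list had 5 of 6 called higher, with Lyz2 at 2.59 (SE 0.22) and C1qa at 1.25 (SE 0.21), and 3 called without sham replicate 1 or sham replicate 2.

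All 6 cardiomyocyte markers were called lower, with a median of -1.99, but the calls were 2 without MI replicate 1 or MI replicate 2. Mb (-2.83, SE 0.43) and Myh6 (-2.15, SE 0.42) were the most abundant. Their sum was 5252 to 8925 CPM in MI and 85216 to 85470 CPM in sham replicates 1 and 2, and 22207 to 22808 CPM in MI and 65188 to 66152 CPM in sham replicates 3 to 6. All libraries thus held heart muscle transcripts, fewest in MI replicates 1 and 2. The endothelial list had 2 of 6 called lower, and 1 when replicate 1 or 2 of either group was left out. Fabp4 stood at -1.90 (SE 0.15) and Pecam1, not called, at 0.05 (SE 0.13). Pecam1 was -0.52 in replicates 1 and 2 but 0.39 in replicates 3 to 6. The median of the endothelial list was -0.84 and 0.13 in these sets. Smooth muscle and pericyte genes had 3 called higher and 2 lower of 5, with Pdgfrb at 1.24 (SE 0.05) and Rgs5 at -1.01 (SE 0.12). The higher calls of that list were 1 without MI replicate 1 or sham replicate 1, 1 with a replicate block and 0 with no covariate for set. Epicardial and mesothelial genes had 3 of 5 called higher, while Upk3b (-0.20, SE 0.43) and Msln (0.01, SE 0.46) were not called. The count was 1 without sham replicate 1 or sham replicate 2, and the median of the list was 1.84 in replicates 1 and 2 and 0.30 in replicates 3 to 6. In these sets Upk3b was 1.42 and -1.14, and Msln was 1.73 and -0.97. The Schwann cell gene Sox10 (-0.63, SE 0.23) was not called, nor was any of 4 red blood cell genes (median -3.90). Hba-a1 stood at -0.02 (SE 0.39) and Hbb-bs at -8.50 (SE 2.60). The value of Hbb-bs was 0.58 for replicates 1 and 2 but -10.42 for replicates 3 to 6, and 2 of the 4 genes were lower by the 12-library test alone. No lung gene passed the filter on low counts; the 4 libraries of MI replicates 3 to 6 alone held them at more than a trace, and with no filter 5 lung genes were called higher. Over all marker lists 24 genes were called higher and 10 lower. Without sham replicate 1 the higher calls were 15, and the lower calls were 6 without MI replicate 1 and 5 without MI replicate 2. The part of these shifts in the levels of the 10 genes was not tested.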

How the data were processed

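The authors deposited, per the file headers, expected counts, FPKM (values per length of the gene and per total of fragments) and TPM (scaled to a common transcript total) for 12 libraries and 18050 genes, and a table of FPKM for replicates 1 and 2 alone with 17723 genes. In that table the levels of the genes described, Cthrc1 aside, were 0.958 to 1.127 times those of the main table. Per the submitters' processing notes, the build was GRCm38, and Bowtie2, RSEM and DESeq2 are named for replicates 3 to 6; tools for replicates 1 and 2, strandedness and versions are not given in the sources used here. Of the genes, 425 blank in replicates 1 and 2 were left out of the fits.

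Counts, once rounded to whole numbers, entered edgeR 4.0.16 in R 4.3.3 (quasi-likelihood F test, TMM scaling, filterByExpr, set as covariate, Benjamini-Hochberg adjustment), which left 13654 genes. A call needed an adjusted p under 0.05 in the same direction over 12 libraries and with replicates 3 to 6 summed, 3 against 3. Each set was also fitted alone, and the difference between sets as an interaction. The interaction fit shares its estimate of spread over sets of unequal spread, so its standard errors can be too small. The fits were also run on simulated counts with known changes. The simulated libraries were independent and held no difference between sets in level or fold, so that run does not bear on those features here. Since no label says that the libraries are separate animals, p-values may reflect technical spread alone. Levels are counts per TMM-scaled library size (CPM). Standard errors are the log2 fold change over the square root of F. Counting intervals cover counting error only.

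The 10 genes, the 8 related lists, the 11 marker lists and the call rule were chosen with earlier results of these data known; 111 of 113 list entries were in the table. Named genes were, per related list, the 3 most abundant called higher, the 3 called lower and 1 not called, per marker list the 2 most abundant, and the 3 nearest profiles per gene. The values of 1 marker gene are not reported here. Same-numbered MI and sham libraries did not deviate together, which does not exclude a pairing, and none was used in the main tests. Alternatives were other scalings, DESeq2 1.42.0, limma 3.58.1 on log2 FPKM, filters, covariates, leaving out each library and a block for replicate number. TPM served only to check the order of levels. Positions are from GENCODE M21 and promoters from RefSeq.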

Additional observations from a re-analysis of the deposited data

Results flagged for a closer look

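Of 40 groups of values examined, 7 held a library far from the others in its group. The nominal rate of about 1 in 20 groups assumes independent groups of even spread, so it does not apply here. Groups of 6 pool sets of unequal spread, and groups of 4 are parts of them. Postn was 2533 CPM in MI replicate 1, below the other 5 MI libraries, with a gap of 0.891 of the range. Tnxb was 95.7 CPM in MI replicate 1 and 204.9 CPM in sham replicate 1, each the highest of its group of 6. Ddah1 was 136 CPM in MI replicate 2, the lowest of 6, and Cthrc1 was 0.381 CPM in sham replicate 1, the highest of 6 and resting on 5 reads. In replicates 3 to 6, Sparc was 7338 CPM in MI replicate 5, the highest of 4, and Fn1 was 56.2 CPM in sham replicate 3, the lowest of 4.

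After TMM scaling, Sparcl1 moved in opposite directions in the sets, below sham in both MI libraries of replicates 1 and 2 and above sham in all 4 of replicates 3 to 6. This opposite direction was lost when libraries were scaled by their totals alone. The log2 fold changes differed by -0.43, and this difference was not tested because the gene was chosen on this contrast.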

How the results depend on the processing

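Under every alternative of scaling, test, filter and covariate, and with each library left out in turn, 8 of the 10 genes were called higher and 1 lower. In replicates 3 to 6 alone, a split chosen after seeing the data, Sparcl1 was called higher too; replicates 1 and 2 alone gave 8 higher and 1 lower. Over the settings with both sets the log2 fold change ran from -0.15 to 0.42 for Sparcl1. It was 8.63 to 12.46 for Cthrc1, 4.74 to 6.65 for Tnc, 1.62 to 2.27 for Tgfbi and -1.16 to -0.62 for Tnxb. Without sham replicate 1 the Cthrc1 value was 12.46.

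Counts over all genes moved more. Library size alone gave 6264 higher and 2477 lower, limma on log2(FPKM + 1) 6174 and 2545, on log2(FPKM + 0.1) 6225 and 2562, and no covariate for set 2305 and 2216. Leaving out a library gave 2241 to 3912 higher and 2788 to 4072 lower. With limma the median of all genes was 0.30 and 0.40 at these pseudocounts.

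For related genes called lower, 6 in the main test, library size alone and limma with a pseudocount of 1 gave 2, a pseudocount of 0.1 and no covariate 3, the 12-library test alone 10, and replicates 3 to 6 alone 11; leaving out a library gave 2 to 6 lower and 24 to 28 higher. For marker genes called lower, 10 in the main test, no covariate gave 6 and replicates 3 to 6 alone 19; leaving out a library gave 5 to 10 lower and 15 to 24 higher. The ranks of the 10 genes by FPKM in MI were kept by 8 to 10 of them when a library was left out. The cause of these moves was not tested.

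A replicate block gave 3150 genes higher and 3528 lower and changed none of the calls of the 10 genes. Correlations of same-numbered MI and sham libraries, taken on deviations from their set and group means, ran from -0.0552 to 0.0609. With 2 libraries per group in replicates 1 and 2, the deviations mirror each other, so both replicates give the same value. Such values do not exclude a pairing. The Cthrc1 fold rests on 0 to 5 reads per sham library, and limma on log2(FPKM + 1) gave its lowest value, 8.63.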
